A study of Homo sapiens with 17 samples.

Results

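Untreated Jurkat cells were compared between 24 and 6 h of the experiment, that is, the change with time in culture when no fusion protein was added. Jurkat, a human cell line started from T cell leukaemia, carries features of a cortical thymocyte. The comparison used 4 of the 17 libraries of the series: the 2 labelled 0 µg/ml at 24 h and the 2 labelled 0 µg/ml at 6 h. Of 25548 gene symbols, the 11984 (46.91%) with a mean of at least 1 FPKM (fragments counted for a gene, scaled to its length and to the size of the library) over these 4 libraries were tested. At that limit, SEMA6C lay just inside with a mean of 1.0007 FPKM and TMED10P1 just outside with 0.9998 FPKM. A single untreated library at 12 h was read as a midpoint.

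The series exposed Jurkat cells to ILT3.Fc, a soluble protein in which the outer domains of ILT3, an inhibitory receptor encoded by LILRB4, are joined to an antibody Fc fragment. The dose was 0, 12.5 or 25 µg/ml and the time 6, 12 or 24 h. All groups shared RPMI-1640 medium with bovine serum, L-glutamine and gentamicin, and RNA was selected by its poly(A) tail. The labels call the second library of each group a duplicate and do not say whether it came from a separate culture, so the p-values rest on a spread between libraries that may be technical alone. No control protein or medium change is described for the 0 µg/ml groups, and the zero hour was not analysed here. LILRB4 itself was listed at 0 in all 5 untreated libraries.

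A cortical thymocyte pairs a rearranged T cell receptor β chain with the invariant pre-T α chain, encoded by PTCRA. RAG1 and RAG2 cut receptor gene segments, and terminal transferase (DNTT) adds bases at the joints. The same stage displays CD1 proteins, which present lipids. In any cell held in culture, chaperones of the endoplasmic reticulum and cytosol fold new proteins, and the abundance of their mRNAs follows the folding load. Passage through the cell cycle sets the level of replication and mitosis transcripts, the first under E2F factors.

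The labelled cell type was checked against marker genes. All 13 T lineage markers passed the limit of 1 FPKM, and their summed level ranged from 1785 to 1885 FPKM over the 5 untreated libraries. Of the markers of other cells, 1 of 7 B cell, 1 of 7 NK cell and 1 of 10 myeloid genes passed it (CD79A, NKG7 and CD68), and no erythroid gene of 7 and no epithelial or fibroblast gene of 9 did. The myeloid sum was 2.30 to 3.26 FPKM, with 5 of the 10 markers listed at 0 in all 5 libraries, and the epithelial and fibroblast sum 0.305 to 0.453 FPKM, with 5 of 9 at 0. The B cell sum, nearly all of it CD79A, was 41.7 and 41.3 FPKM at 6 h, 41.5 at 12 h, and 36.6 and 33.7 at 24 h, with 2 of 7 markers at 0. The NK cell sum, mostly NKG7, was 6.25 and 7.71 FPKM at 6 h, 5.58 at 12 h, and 4.07 and 3.89 at 24 h, with none of 7 at 0. The erythroid sum was 2.49 and 2.52 FPKM at 6 h, 1.48 at 12 h, and 1.01 and 0.126 at 24 h, with 4 of 7 markers at 0. These 3 sums were lower in both 24 h libraries than in both 6 h libraries, and their part in the results was not tested. In bulk RNA, fewer cells of a type and less RNA per cell cannot be told apart.

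The untreated libraries summed to between 511830 and 517962 FPKM. Read counts and absolute depth are unknown, and the relative depth recovered from low values was 0.671 to 0.913 of the deepest library. Across genes, log2(FPKM + 1) of the duplicates correlated at r = 0.983 at 6 h and 0.985 at 24 h, and the median gene differed between duplicates by 0.051 and 0.064 on that scale. Both 24 h libraries and the first 6 h library were run in lane 4, while the duplicate 6 h library and the 12 h library were run in lane 5, so lane and time overlap in part.

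From 6 to 24 h, 284 of the 11984 genes (2.37%) changed by limma's moderated test at an adjusted p under 0.05, 68 higher (0.567%) and 216 lower (1.8%). In no called gene did the 6 and 24 h values overlap. Over all genes tested, both 24 h values lay above both 6 h values in 23.5% and below both in 32.8%. Most changes were small. The median size of a called change was 0.33 on the log2(FPKM + 1) scale, on which the change of weakly expressed genes is understated, and 9 rises and 45 falls reached 0.5. The median change of all genes tested was -0.02, and 2258 genes had an unadjusted p under 0.05. The balance of rises and falls depended on scaling: rises made up 23.94% of the calls as deposited, 42.22% with libraries centred on their median, 41.33% after quantile normalization, and 58.39% after a correction for GC content and transcript length. The number of calls rested on few libraries. It was 37 without the first and 11 without the duplicate 24 h library, 14 without the first and 8 without the duplicate 6 h library, and 798 without the first 12.5 µg/ml 6 h library, which enters only through the shared estimate of the spread.

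**Figure D1:**
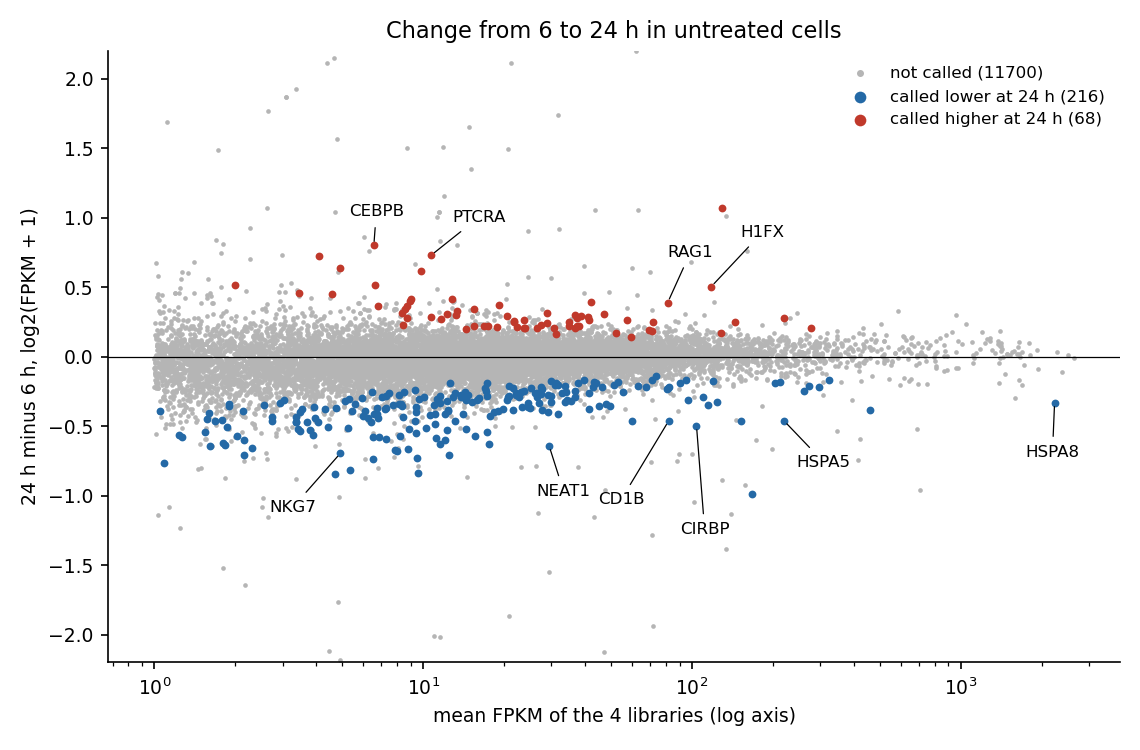
Change from 6 to 24 h in untreated cells (24 h minus 6 h, log2(FPKM + 1), vertical axis) against the mean FPKM of the 4 libraries (log axis). Each point is a gene, with the 68 called higher in red, the 216 called lower in blue and the 11700 not called in grey. 27 genes, none of them called, lie outside the vertical axis. Called changes are mostly within 1 unit of 0, and falls outnumber rises.

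PTCRA, RAG1, RAG2 and DNTT rose, while CD1A, CD1B and CD1D fell. Of the 16 genes in the list of pre-T cell receptor, recombinase and thymocyte surface genes, all tested, 4 were called higher and 3 lower. Over all genes, 0.567% were called higher and 1.8% lower. The list's median change was 0.02. After the correction for GC content and length, 5 were called higher (5.56% of all genes were) and 4 lower (3.96% of all genes). PTCRA, the pre-T α chain, read 7.49 and 8.14 FPKM in the first and duplicate 6 h libraries, 9.33 FPKM at 12 h, and 14.2 and 13.01 FPKM at 24 h. Both 24 h values lay above both 6 h values, and the rise of 0.73 (SE 0.11, limma adjusted p = 0.0103) was the largest of the list. RAG1 read 70.6 and 70.0 FPKM at 6 h, 78.5 at 12 h, and 91.8 and 92.7 at 24 h, a rise of 0.39 (SE 0.083, limma adjusted p = 0.0384). RAG2 read 34.7 FPKM in both 6 h libraries, 32.9 at 12 h, and 42.3 and 42.9 at 24 h, a rise of 0.29 (SE 0.044, limma adjusted p = 0.0111). The 12 h value of RAG2 therefore lay below both ends. DNTT, named after its values were seen, read 41.7 and 42.4 FPKM at 6 h, 44.7 at 12 h, and 52.0 and 52.3 at 24 h, a rise of 0.30 (limma adjusted p = 0.0201).

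Among the CD1 genes, CD1B read 93.0 and 97.3 FPKM at 6 h, 78.3 at 12 h, and 67.9 and 69.6 at 24 h. Its 24 h libraries were both below its 6 h libraries, a fall of 0.46 (log2 change -0.46, SE 0.056, limma adjusted p = 0.00713). CD1D, which presents lipids to natural killer T cells, read 30.8 and 33.0 FPKM at 6 h, 28.5 at 12 h, and 25.5 and 26.9 at 24 h, a log2 change of -0.27 (SE 0.048, limma adjusted p = 0.0181). CD1A (log2 change -0.23, limma adjusted p = 0.0321) also fell, and CD1E (-0.18, adjusted p = 0.072) and CD1C (-0.12, adjusted p = 0.236) did not pass the test; the 3 were named after their values were seen. The coreceptor genes CD4 (0.16, adjusted p = 0.376), CD8A (0.12, adjusted p = 0.628) and CD8B (-0.21, adjusted p = 0.483) did not pass limma's test either, and were likewise named after their values were seen.

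**Figure D2:**
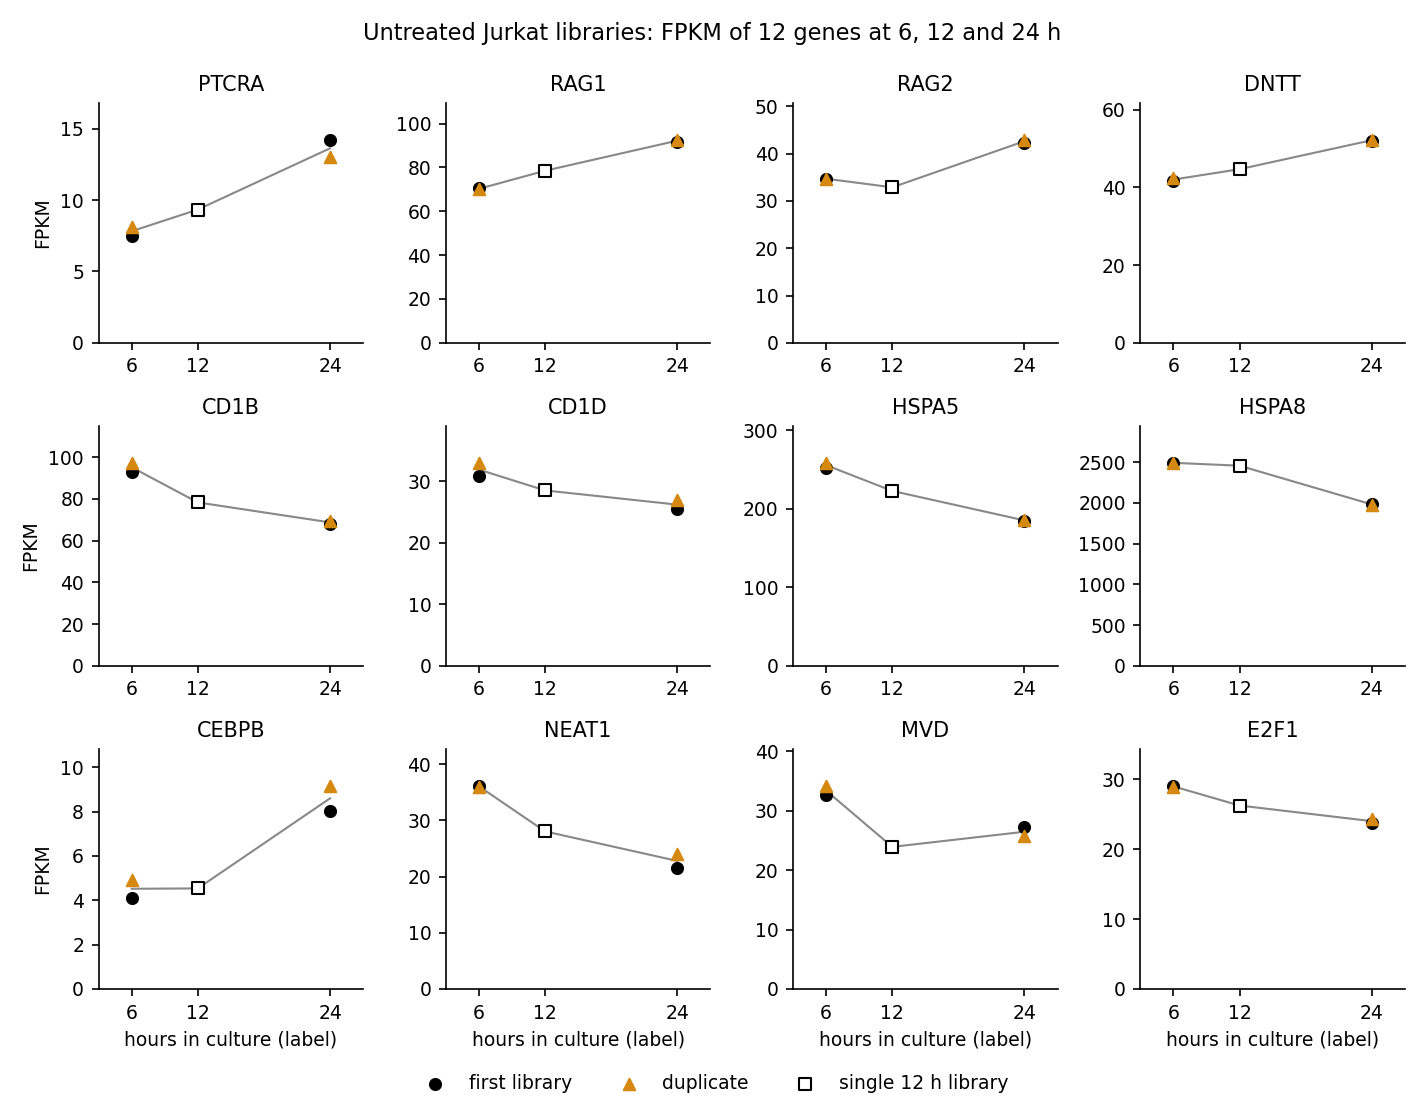
FPKM of 12 genes (vertical axes from 0) in the 5 untreated libraries against the labelled time in hours. Circles are first libraries, triangles duplicates, open squares the single 12 h library, and lines join the group means. PTCRA, RAG1, RAG2, DNTT and CEBPB are higher in both 24 h libraries than in both 6 h libraries, and the other 7 genes are lower.

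None of the 32 T cell receptor signalling genes was called in either direction, with a median change of -0.03. The correction for GC content and length called VAV1 lower and the kinase LCK (named after its values were seen) higher. The members with the smallest p were the coreceptor CD5 (-0.16, limma adjusted p = 0.0812) and the exchange factor VAV1 (-0.18, adjusted p = 0.088). CD3E, a chain of the receptor complex, read 319.5 and 303 FPKM at 6 h and 342 and 321 FPKM at 24 h (0.09, limma adjusted p = 0.445). Of 26 tested transcription factors of T cell leukaemia and thymocytes, 1 fell (1.8% of all genes did) and none rose, with a median change of 0.03. The exception was TAL1, the basic helix-loop-helix factor that Jurkat cells express ectopically, which read 67.6 and 68.2 FPKM at 6 h, 64.6 at 12 h, and 58.8 and 58.4 at 24 h. Its log2 change was -0.21 (SE 0.035, limma adjusted p = 0.0154). With the correction for GC content and length, 5 factors were called higher (ID2, RUNX3, TCF12, LEF1 and ID3) and 2 lower (TAL1 and RUNX1), named after their values were seen, where 5.56% of all genes were called higher and 3.96% lower. No NOTCH receptor or target gene of 13 tested was called. NOTCH3 read 17.1 and 17.4 FPKM at 6 h and 23.7 and 22.9 FPKM at 24 h (0.42, adjusted p = 0.0730), and IL7R, the interleukin 7 receptor, read 5.21 and 4.74 FPKM at 6 h and 7.09 and 7.001 FPKM at 24 h (0.43, adjusted p = 0.108). Both were called higher after the correction, NOTCH3 at 0.47 (limma adjusted p = 0.0044) and IL7R at 0.44 (adjusted p = 0.039), the only 2 of the 13.

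A major chaperone gene fell in each of 2 compartments, HSPA5 in the endoplasmic reticulum and HSPA8 in the cytosol. HSPA5 encodes BiP, the main Hsp70 chaperone of the endoplasmic reticulum. It read 252 and 258 FPKM at 6 h, 223 at 12 h, and 185 FPKM in both 24 h libraries. The 24 h libraries were both lower, and the log2 change was -0.46 (SE 0.052, limma adjusted p = 0.004). HSPA5 was the only gene called among 23 tested chaperone and stress genes of this compartment, where 1.8% of all genes were called lower. The median change of the list was -0.04. HSP90B1, the Hsp90 of the same compartment, read 452 and 454 FPKM at 6 h and 398 and 402 FPKM at 24 h (-0.18, limma adjusted p = 0.0689), and the lectin chaperone calreticulin, CALR, read 804 and 797 FPKM at 6 h and 717 and 677 FPKM at 24 h (-0.20, adjusted p = 0.0661). Neither passed the test as deposited, although their 24 h values lay below their 6 h values, as did those of 32.8% of all genes tested. After the correction for GC content and length, 6 of the 23 genes were called lower, HSPA5, CALR, HSP90B1, DNAJC3, MANF and SEL1L, the last 3 named after their values were seen, and 1 higher, EDEM1, where 3.96% of all genes were called lower and 5.56% higher.

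Some promoters of this list hold an element that the comparison did not use, the endoplasmic reticulum stress element, which transcription factors of the unfolded protein response bind. The motif, CCAAT and CCACG with any 9 bases between, was searched on both strands in the 250 bases before the transcription start, in RefSeq promoter sequences (GRCh38.p14). It was found in 7 of the 22 list genes with a promoter sequence (31.8%) and in 25 of all 27305 genes with one (0.0916%). A gene counted if any of its promoters held a match. The match is shown in capitals, 5′ to 3′ on the gene's strand and with the stretch around it, for HSPA5, which fell, and for HSP90B1 and CALR, called lower only after the correction; at CALR it lies on the opposite strand. The windows are chr9:125241351-125241469 (minus strand) for HSPA5, chr12:103930196-103930254 (plus strand) for HSP90B1 and chr19:12938364-12938422 (plus strand) for CALR. The first base of the match lies 66, 194 and 225 bases before the start, in that order.
HSPA5: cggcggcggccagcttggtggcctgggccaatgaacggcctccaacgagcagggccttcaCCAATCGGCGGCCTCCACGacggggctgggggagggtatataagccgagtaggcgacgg
HSP90B1: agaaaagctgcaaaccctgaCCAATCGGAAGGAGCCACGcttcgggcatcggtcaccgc
CALR: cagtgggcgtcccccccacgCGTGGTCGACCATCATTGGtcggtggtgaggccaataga
A match in letters is a description of the sequence, and binding was not measured.

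In the cytosolic heat shock list of 21 tested genes, 1 fell (1.8% of all genes did) and 1 rose (0.567% of all genes), with a median change of 0.09. HSPA8, the constitutive Hsp70, was among the most abundant mRNAs and read 2489.6 and 2491 FPKM at 6 h, 2455 at 12 h, and 1989 and 1972 FPKM at 24 h. Its log2 change was -0.33 (SE 0.058, limma adjusted p = 0.0181). HSF1, the heat shock transcription factor, read 65.7 and 64.9 FPKM at 6 h, 72.3 at 12 h, and 79.9 and 76.0 at 24 h, a rise of 0.25 (SE 0.053, limma adjusted p = 0.0365). The co-chaperone BAG3 (0.19, limma adjusted p = 0.0546) and the mitochondrial chaperonin HSPE1 (0.21, adjusted p = 0.0661) were higher in both 24 h libraries without passing the test. Of all genes tested, 23.5% were higher in both. After the correction for GC content and length, 9 of the 21 were called higher (5.56% of all genes were), BAG3 and HSPE1 among them, and 2 lower (3.96% of all genes), HSPA8 and its partner DNAJA1 (named after its values were seen).

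Of 36 genes of DNA replication and the passage from G1 to S phase, 4 fell and none rose, where 1.8% of all genes were called lower. In this list 26 of 36 changes were below 0, as were 55.67% over all genes, and the median was -0.04 against -0.02. LIG1, the ligase that joins Okazaki fragments, read 61.0 and 59.9 FPKM at 6 h, 57.6 at 12 h, and 52.4 and 48.7 at 24 h, a log2 change of -0.25 (SE 0.045, limma adjusted p = 0.0181). E2F1 itself read 29.1 and 28.9 FPKM at 6 h, 26.2 at 12 h, and 23.7 and 24.3 at 24 h, a log2 change of -0.26 (SE 0.047, limma adjusted p = 0.0193). In both genes the 24 h libraries lay below the 6 h libraries and the 12 h library between them. MCM7, a subunit of the replicative helicase (-0.21, limma adjusted p = 0.0394), and RRM2, a subunit of ribonucleotide reductase (-0.18, adjusted p = 0.0456), were the other two. After the correction for GC content and length, 8 were called lower (3.96% of all genes were) and none higher, the other 4 being MCM5, GINS4, PRIM1 and CDC45, named after their values were seen. Over 21 alternative settings, RRM2 lost its call in 14, MCM7 in 12, E2F1 in 7 and LIG1 in 6. Some of these settings leave 1 library in a group, and all 4 genes kept their direction throughout.

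A pair of E2F motifs, TTTCCCGC and TTTGGCGC, was searched in the same promoter windows on both strands. Either was found in 13 of 32 list genes with a promoter sequence (40.6%) against 645 of all 27305 such genes (2.36%). This share describes the list, most of whose members were not called, and not the genes that fell. Binding was not measured. The matches of 3 of the genes that fell are shown in capitals, as they lie in the promoter 5′ to 3′ on the gene's strand; at MCM7 the match is on the opposite strand. The windows are chr20:33686386-33686435 for E2F1, chr19:48170431-48170488 for LIG1 and chr7:100101557-100101614 for MCM7, all on the minus strand of GRCh38.p14, and the matches begin 20, 114 and 187 bases before the start.
E2F1: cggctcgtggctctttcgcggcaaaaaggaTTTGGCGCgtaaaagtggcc
LIG1: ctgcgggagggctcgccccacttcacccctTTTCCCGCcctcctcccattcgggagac
MCM7: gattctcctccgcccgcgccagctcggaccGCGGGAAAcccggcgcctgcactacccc

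None of 36 mitosis genes was called. Of their changes 33 were above 0, as were 44.33% over all genes, and the median was 0.09 against -0.02. CENPA, the centromeric histone, read 38.7 and 37.6 FPKM at 6 h, 40.3 at 12 h, and 43.8 and 42.5 at 24 h (0.17, limma adjusted p = 0.0545). TPX2, a spindle assembly factor, read 122 and 120 FPKM at 6 h and 133 and 131 FPKM at 24 h (0.13, adjusted p = 0.0545), and the checkpoint kinase BUB1 read 94.5 and 94.1 FPKM at 6 h and 103 and 107 FPKM at 24 h (0.15, adjusted p = 0.0592). In these 3 genes both 24 h values lay above both 6 h values, as in 23.5% of all genes tested. After the correction for GC content and length, 10 of the 36 were called higher (5.56% of all genes were) and none lower, among them CENPF (0.19, limma adjusted p = 0.00218), CCNA2 (0.16, adjusted p = 0.00562) and PLK1 (0.19, adjusted p = 0.0229). The 8 tested replication histones had a median change of 0.35 with none called; their mRNAs mostly lack poly(A) tails and are poorly held by poly(A) selection.

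Several RNA-binding proteins fell, CIRBP, RBM3 and HNRNPH1 among them. These 3 genes were picked after their values were seen, as were MALAT1 and the hnRNP and SR lists with their members. CIRBP, an RNA-binding protein known for its induction by mild cold, read 122 FPKM in both 6 h libraries, 102 at 12 h, and 89.4 and 82.9 at 24 h. Its log2 change of -0.50 (SE 0.051, limma adjusted p = 0.00242) was shared in direction by the other cold-inducible protein, RBM3, which read 121 and 122 FPKM at 6 h, 119 at 12 h, and 97.9 and 100.3 at 24 h (-0.29, SE 0.047, limma adjusted p = 0.0139). HNRNPH1, a splicing regulator, read 519 and 520.4 FPKM at 6 h, 472 at 12 h, and 399 and 398 FPKM at 24 h, a log2 change of -0.38 (SE 0.035, limma adjusted p = 0.00222). All 3 genes were lower in both 24 h libraries, with the 12 h value between.

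The families of these proteins did not move as a whole. Of 20 tested hnRNP genes, HNRNPH1 was the only one called, where 2.37% of all genes were called, and the median change was -0.02. Of 11 tested SR splicing factors, SRSF6 fell (136 and 140 FPKM at 6 h, 108 and 112 FPKM at 24 h; log2 change -0.33, limma adjusted p = 0.00284) and SRSF4 rose (66.4 and 66.1 FPKM at 6 h, 74.5 and 76.6 FPKM at 24 h; 0.19, adjusted p = 0.0456), with a median of -0.02. The nuclear long noncoding RNA NEAT1, the scaffold of paraspeckles, read 36.2 and 35.98 FPKM at 6 h, 28.04 at 12 h, and 21.6 and 24.0 at 24 h, a log2 change of -0.64 (SE 0.12, limma adjusted p = 0.0193). MALAT1, a nuclear speckle RNA from the neighbouring locus, read 18.4 and 19.1 FPKM at 6 h, 14.8 at 12 h, and 12.9 and 11.8 at 24 h (-0.57, SE 0.090, limma adjusted p = 0.0124). In these poly(A)-selected libraries, both RNAs were highest in both 6 h libraries and lowest in both 24 h libraries. How much of each RNA the poly(A) selection held was not measured.

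The largest rise among called genes with standard symbols was that of CEBPB, a leucine zipper transcription factor counted here among targets of ATF4. It read 4.12 and 4.92 FPKM at 6 h, 4.53 at 12 h, and 8.03 and 9.16 at 24 h, a rise of 0.80 (SE 0.12, limma adjusted p = 0.0120). The 12 h library was still at the 6 h level. CEBPB and PPP1R15A, which encodes a phosphatase subunit acting on eIF2α and fell by 0.35 (log2 change -0.35, limma adjusted p = 0.0268), were the only 2 called of 18 ATF4 targets, and the list's median was 0.03. Among 20 cytosolic tRNA synthetases, TARS rose (0.17, limma adjusted p = 0.0441) and none fell. Over all genes, 0.567% were called higher and 1.8% lower. None of 11 amino acid transporters and none of 12 serine and one-carbon enzymes was called.

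Apoptosis genes changed singly. Of 21 tested BCL2 family and death receptor genes, 1 rose (0.567% of all genes did) and 2 fell (1.8% of all genes), with a median change of 0.03. The initiator caspase CASP8 read 37.5 and 36.4 FPKM at 6 h, 33.3 at 12 h, and 30.9 and 30.8 at 24 h, a log2 change of -0.25 (SE 0.035, limma adjusted p = 0.00817). CASP9, the initiator of the mitochondrial route, read 6.47 and 6.24 FPKM at 6 h, 5.87 at 12 h, and 5.11 and 4.53 at 24 h (-0.34, SE 0.073, limma adjusted p = 0.0394). PMAIP1, which encodes the BH3-only protein NOXA, read 35.0 and 35.2 FPKM at 6 h, 37.1 at 12 h, and 40.4 and 41.6 at 24 h, a rise of 0.22 (SE 0.041, limma adjusted p = 0.0226). In each of these 3 genes the 6 and 24 h values did not overlap, as in every called gene.

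In lipid synthesis, 2 of 22 cholesterol synthesis genes fell (1.8% of all genes did) and none rose, with a median change of -0.02. MVD, mevalonate diphosphate decarboxylase, read 32.5 and 34.2 FPKM at 6 h, 23.9 at 12 h, and 27.2 and 25.6 at 24 h, a log2 change of -0.32 (SE 0.064, limma adjusted p = 0.0263). LSS, lanosterol synthase, read 45.1 FPKM in both 6 h libraries, 33.7 at 12 h, and 39.3 and 35.7 at 24 h (-0.26, SE 0.060, limma adjusted p = 0.0477). HMGCS1, the cytosolic HMG-CoA synthase, read 75.4 and 75.1 FPKM at 6 h, 48.4 at 12 h, and 65.2 and 69.2 at 24 h (-0.16, limma adjusted p = 0.0652). The 12 h library was the lowest of the 5 for all 3 genes. SREBF1, a transcription factor of the pathway, was the only called gene of 16 for sterol control and uptake (24.9 and 23.6 FPKM at 6 h, 20.5 and 19.2 FPKM at 24 h; -0.28, limma adjusted p = 0.0439), and none of 12 fatty acid synthesis genes was called.

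Other lists gave few calls, where 0.567% of all genes were called higher and 1.8% lower. Called lower were UBTF, a factor of ribosomal RNA transcription (1 of 33 ribosome biogenesis genes; -0.19, limma adjusted p = 0.0167), XAF1 (1 of 36 interferon-stimulated genes; -0.27, adjusted p = 0.0217), the integrin chain ITGA4 (1 of 18 adhesion genes; -0.35, adjusted p = 0.0288), the tropomyosins TPM2 and TPM4 (2 of 15 serum response and cytoskeletal genes; -0.52 and -0.19, adjusted p = 0.0125 and 0.0253), AEN (1 of 20 p53 targets; -0.18, adjusted p = 0.0479) and CTSA (1 of 29 lysosome genes; -0.24, adjusted p = 0.0479). After the correction for GC content and length, AEN (-0.13, limma adjusted p = 0.0717) and CTSA (-0.19, adjusted p = 0.0716) were no longer called. The p53 list then held 2 calls higher and none lower, and the lysosome list 1 in each direction. As deposited, TKT, transketolase, was the only gene called higher of 20 NFE2L2 targets (0.21, limma adjusted p = 0.0473). None was called of 23 glycolysis genes, 17 hypoxia-inducible factor targets, 66 cytosolic ribosomal proteins, 42 respiratory chain genes, 16 immediate early genes, 14 NF-kB targets, 14 FOXO genes, 20 cell cycle inhibitors, 15 circadian clock genes, 28 mTORC1 pathway genes, 6 metallothionein and zinc genes, or 3 MondoA and glucose genes. With the correction for GC content and length, 6 glycolysis genes were called higher and 1 lower, and 6 ribosomal proteins, 3 respiratory chain genes, 2 hypoxia-inducible factor targets, 2 cell cycle inhibitors, 2 mTORC1 genes, 1 immediate early gene and 1 NF-kB target were called higher, with none of these 7 lists holding a call lower. Over all genes, this correction called 5.56% higher and 3.96% lower. The 3 of 42 respiratory chain genes, 2 of 28 mTORC1 genes, 1 of 16 immediate early genes and 1 of 14 NF-kB targets were near that share. Of the circadian genes 2 were called in each direction after the correction, and of the FOXO genes 1 in each. Of the metallothionein list 2 were called lower, of the NFE2L2 targets 7 higher, and of the MondoA list none. The same correction called 3 higher and 2 lower of the ATF4 targets, 4 higher of the tRNA synthetases, 2 higher of the amino acid transporters, 3 higher of the one-carbon enzymes, 2 in each direction of the BCL2 family list, and 2 higher and 4 lower of the cholesterol synthesis genes. TXNIP, a MondoA target, was below the limit, with 0.529 and 0.514 FPKM at 6 h, 0.548 at 12 h, and 0.459 and 0.633 at 24 h. MYC read 184 and 185 FPKM at 6 h and 182 and 178 FPKM at 24 h (-0.04, limma adjusted p = 0.612), a direction that turned positive after the correction for GC content and length.

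**Figure D3:**
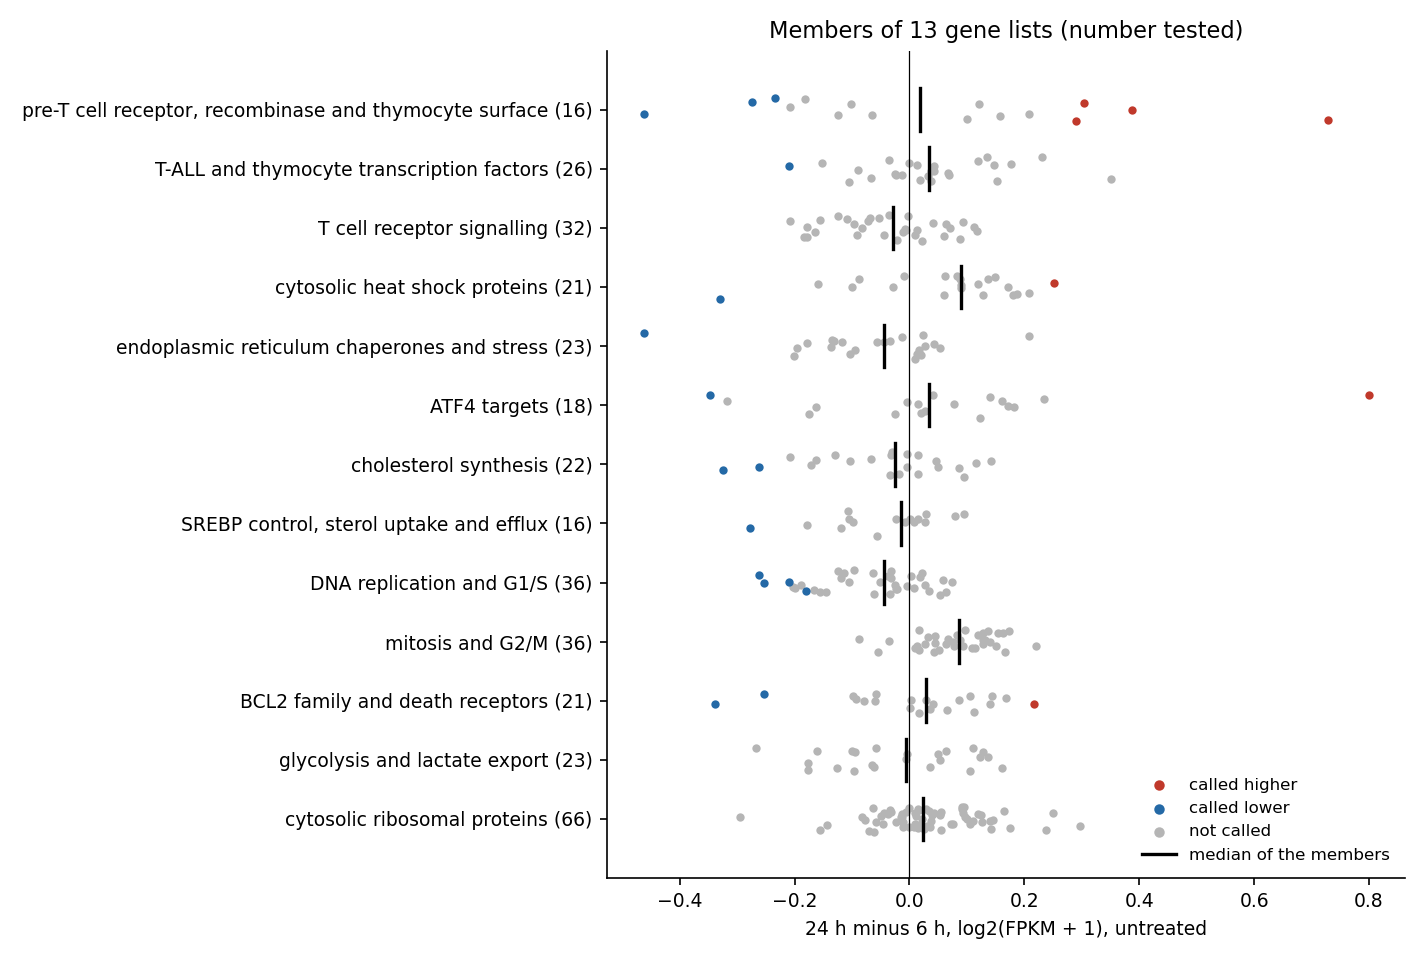
Change from 6 to 24 h in untreated cells (log2(FPKM + 1), horizontal axis) of each tested member of 13 gene lists, with the number tested in parentheses. Points are genes, red where called higher, blue where called lower and grey where not called, spread vertically for visibility; black bars are medians. The pre-T cell receptor list holds calls on both sides of 0, and 33 of 36 mitosis genes lie above 0 without a call.

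The remaining genes of the 12 largest rises and 12 largest falls were of mixed kinds. H1FX, a linker histone, read 95.5 and 99.4 FPKM at 6 h, 90.5 at 12 h, and 136 and 141 FPKM at 24 h (0.50, SE 0.098, limma adjusted p = 0.0259), and POLG, the mitochondrial DNA polymerase, read 36.4 and 36.3 FPKM at 6 h, 41.6 at 12 h, and 49.5 and 46.7 at 24 h (0.39, SE 0.053, limma adjusted p = 0.00747). Both were higher in both 24 h libraries. CMTM8, GRID1, ATP6AP1L, FAM171A2, SERPINB2 (a serine protease inhibitor), SUPT3H, MPPED2 and CHRNA3 (a nicotinic receptor subunit) rose by 0.40 to 0.72. They were at most 15.5 FPKM in any untreated 6 or 24 h library.

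Among the falls, the NK cell marker NKG7, a cytotoxic granule protein, read 5.68 and 6.996 FPKM at 6 h, 4.92 at 12 h, and 3.52 and 3.50 at 24 h (-0.70, SE 0.14, limma adjusted p = 0.0262), while the other 6 NK markers stayed under the limit of 1 FPKM. TNFRSF14, the receptor HVEM, read 3.46 and 2.67 FPKM at 6 h, 2.52 at 12 h, and 1.41 and 1.71 at 24 h (-0.66, SE 0.12, limma adjusted p = 0.0221). PLAC8L1, MYL5, ATHL1, WDR90, PRR22, SEC31B and ARHGAP33 fell by 0.66 to 0.76 (log2 changes from -0.76 to -0.66). MFI2-AS1 had the largest fall among called genes with standard symbols (-0.81, limma adjusted p = 0.00222); it is an antisense RNA, and with strandedness not given, its reads cannot be told from those of the gene opposite. MST1P2 (-0.65, adjusted p = 0.00713) is a pseudogene whose reads may be split with its parent. Symbols of small RNAs and unnamed loci made up 6 rises and 28 falls, with RN7SL1 (1.07, limma adjusted p = 0.0479) and SNORA6 (-0.99, adjusted p = 0.0488) the farthest from 0; poly(A) selection and gene models this short measure such RNAs poorly. Of genes picked after their values were seen, the T cell ligand CD40LG (-0.51, adjusted p = 0.0300) and the kinase JAK3 (-0.54, adjusted p = 0.00713) fell.

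At 12 h, the single untreated library lay between the group means of 6 and 24 h for 61 of the 68 genes called higher and for 202 of the 216 called lower, 92.61% in all, where 41.88% of all genes tested lay between. The median gene called higher had completed 35.83% of its change at 12 h, and the median gene called lower 47.83%. Of the 21 genes outside the range, 12 lay beyond the 6 h mean and 9, all called lower, beyond the 24 h mean. Since called genes are those with well separated ends, a higher share between the ends follows in part from the choice of genes, and it has no test.

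The same step from 6 to 24 h was read in cells with ILT3.Fc, in libraries that the untreated calls did not use, although all groups share the estimate of the spread. At 12.5 µg/ml, 742 genes were called (6.19%), and at 25 µg/ml 2305 (19.2%). Of the 68 genes called higher without ILT3.Fc, 38 were called higher at 12.5 µg/ml (55.88%, where 2.26% of all genes were) and none lower, and 41 were called higher at 25 µg/ml (60.29%, where 11.8% of all genes were) and 1 lower. Of the 216 called lower, 125 were called lower at 12.5 µg/ml (57.87%, where 3.93% of all genes were) and none higher, and 97 were called lower at 25 µg/ml (44.91%, where 7.38% of all genes were) and 10 higher. The sign was the same for 65 of 68 and 211 of 216 genes at 12.5 µg/ml, and for 63 of 68 and 168 of 216 genes at 25 µg/ml. Over all genes tested, 47.57% of changes were above and 52.41% below 0 at 12.5 µg/ml. At 25 µg/ml these shares were 53.06% and 46.9%. The treated libraries were spread over the lanes in the same way as the untreated ones.

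**Figure D4:**
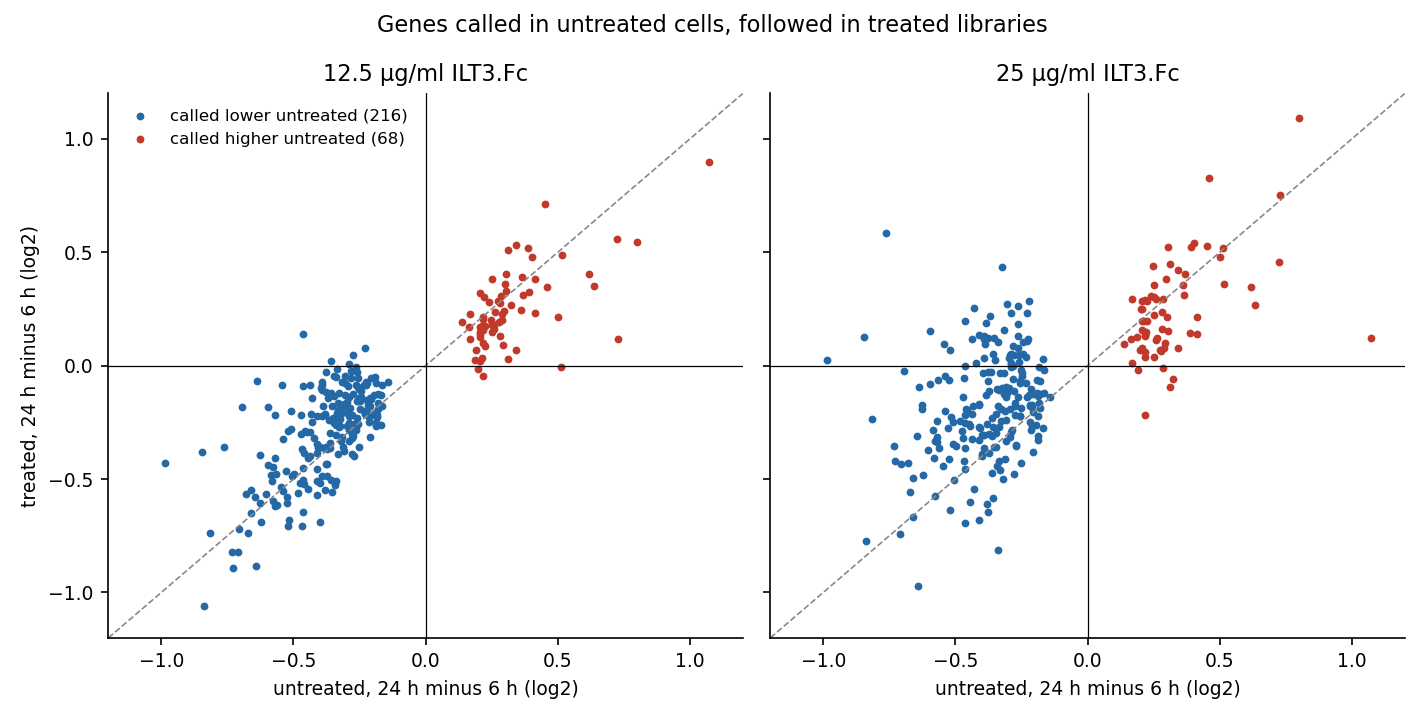
Change from 6 to 24 h in cells given 12.5 µg/ml (left) or 25 µg/ml (right) ILT3.Fc (vertical axes, log2(FPKM + 1)) against the change in untreated cells (horizontal axes). Each point is 1 of the 68 genes called higher (red) or the 216 called lower (blue) in untreated cells; the dashed line marks equal change. At 12.5 µg/ml 211 of the blue points lie below 0, and at 25 µg/ml 168 do. Over all genes tested, 52.41% and 46.9% lie below 0.

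Single genes of the groups above differed in how they followed. CD1B fell at both doses (-0.51 and -0.45, limma adjusted p = 0.0026 and 0.000786), as did HSPA5 (-0.52 and -0.36, adjusted p = 0.0024 and 0.00149), CIRBP (-0.48 and -0.35, adjusted p = 0.0024 and 0.0015) and NEAT1 (-0.88 and -0.97, adjusted p = 0.0037 and 0.000711). PTCRA read 9.28 and 7.38 FPKM at 6 h and 8.92 and 9.21 FPKM at 24 h with 12.5 µg/ml, overlapping in range (0.12, limma adjusted p = 0.514), and 5.11 and 5.59 FPKM at 6 h and 8.95 and 10.5 FPKM at 24 h with 25 µg/ml (0.75, adjusted p = 0.0014). RAG1 rose at 12.5 µg/ml (0.52, limma adjusted p = 0.0078), and at 25 µg/ml it read 65.1 and 68.0 FPKM at 6 h and 74.9 and 72.2 FPKM at 24 h (0.14, adjusted p = 0.254). NKG7 read 6.76 and 5.31 FPKM at 6 h against 5.45 and 4.88 FPKM at 24 h with 12.5 µg/ml (-0.18, limma adjusted p = 0.42). For none of these genes was the difference between the treated and the untreated change called.

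The difference itself, the change at a dose minus the untreated change, was called for 399 genes at 25 µg/ml (3.33%), 284 above (2.37%) and 115 below 0 (0.96%). At 12.5 µg/ml it was called for none by limma, with 676 at an unadjusted p under 0.05. Of the genes called in untreated cells, 4 of the 68 higher and 37 of the 216 lower had a called difference at 25 µg/ml; the same untreated libraries enter both measures, so these counts are a description. Cholesterol synthesis genes held 10 differences above 0 and 1 below among 22. MVD fell in untreated cells and read 29.8 and 31.6 FPKM at 6 h and 40.5 and 43.0 FPKM at 24 h with 25 µg/ml, a difference in change of 0.76 (SE 0.090, limma adjusted p = 0.0110). Mitosis genes held 19 differences below 0 and none above among 36. CENPF read 57.9 and 58.2 FPKM at 6 h and 67.3 and 68.3 at 24 h untreated, against 53.4 and 55.6 at 6 h and 44.5 and 42.2 at 24 h with 25 µg/ml (difference -0.54, SE 0.092, limma adjusted p = 0.0173). The count of differences fell from 399 to 5 without the duplicate 25 µg/ml 24 h library and to 2 without the duplicate 25 µg/ml 6 h library. Without the first 25 µg/ml 6 h library it was 58, without the first or duplicate untreated 6 h library 26 or 13, and without the first or duplicate untreated 24 h library 229 or 11. It was 835 without the first 25 µg/ml 24 h library and 1172 without the first 12.5 µg/ml 6 h library. After the correction for GC content and length it was 363, with 148 above and 215 below 0.

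The untreated change moved with GC content. Genes called lower had a median GC content of 55.33%, genes called higher 47.34% and all genes tested 48.48%. Across 11087 genes with a value, the change correlated with GC content at Spearman's rho = -0.21, as a description over genes that share libraries. The change from 6 to 24 h correlated with it at -0.27 with 12.5 µg/ml and at 0.43, the opposite direction, with 25 µg/ml. Of the untreated libraries, the duplicate 24 h library moved with GC content most. Its deviation from the mean of all 17 libraries, treated ones included, correlated with GC content at -0.37. That of the first 24 h library correlated at 0.03, those of the 6 h libraries at 0.12 and 0.08, and that of the 12 h library at -0.12. With each library corrected for GC content and length, 65 of 66 genes called higher and 184 of 198 called lower that had a value were still called, with medians of 0.28 and -0.30 (0.28 and -0.34 before), and 1055 of 11087 genes (9.52%) were called in all. The part of GC content in the single results was not tested further.

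**Figure D5:**
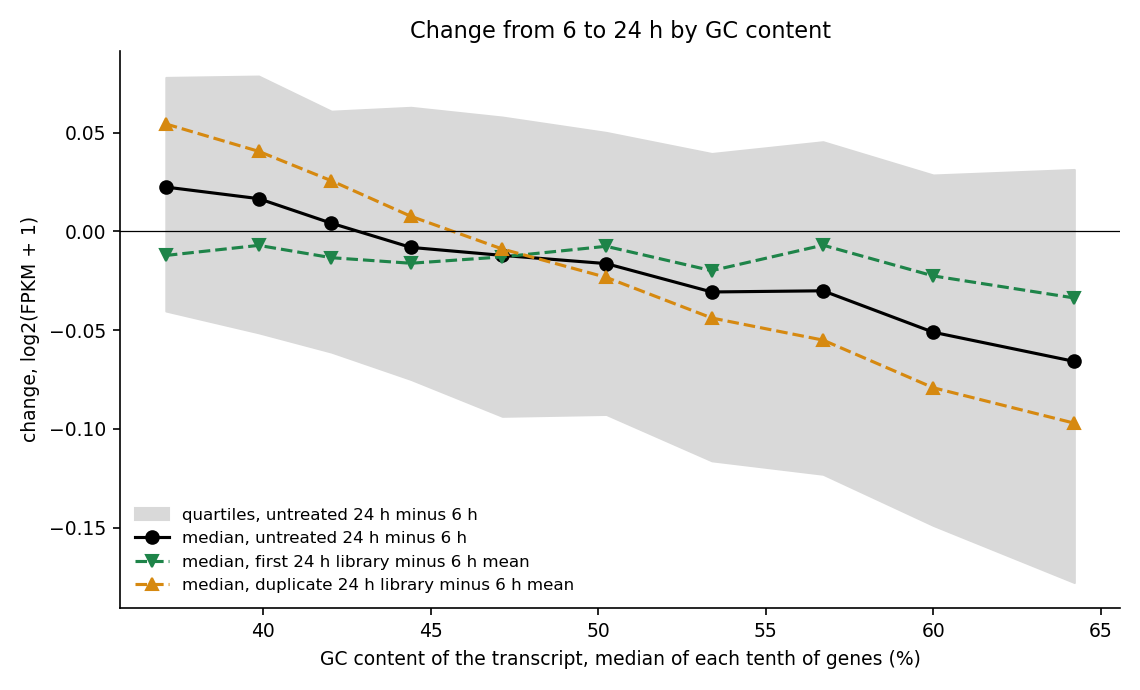
Change from 6 to 24 h in untreated cells (log2(FPKM + 1), vertical axis) against the GC content of transcripts, in 10 bins of equal size over 11087 genes, each placed at its median GC content (horizontal axis). The black line is the median and the grey band the quartiles of the change; dashed lines are the medians of the first (green) and the duplicate (orange) 24 h library minus the 6 h mean. The duplicate falls from 0.05 to -0.10 with rising GC content, and the first library stays between -0.03 and -0.01.

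Lane gave no independent comparison in lane 5, which holds no untreated 24 h library. Within lane 4, with both 24 h libraries against the first 6 h library, the genes called higher had a median change of 0.28 and those called lower -0.34, while 10 genes were called there and none of the 284 was among them, with 3 residual degrees of freedom. The lane 4 libraries were among those used to call the 284 genes. Their medians within lane 4 therefore follow largely from the choice of genes and are no separate check on lane. With lane as a term in the fit of all 17 libraries, 199 genes were called, 168 of them among the 284. The part of lane in the single results was not tested further.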

How the data were processed

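RNA from Jurkat cells was measured in 17 libraries, of which 4 (untreated, 6 and 24 h) were compared. The authors deposited their FPKM values as 1 table of all libraries. TopHat2 2.1.0 is named in the submitters' processing notes. The sources used here do not give the program that computed FPKM, the genome build, the annotation or the strandedness. FPKM keeps no read counts, and absolute depth is unknown.

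The table had 25593 lines. Where a symbol was repeated (45 lines), the line of highest mean stayed, and 5290 symbols were at 0 in all libraries. Genes with a mean of at least 1 FPKM over the 4 libraries were tested on log2(FPKM + 1). The model, in limma 3.58.1 (R 4.3.3), gave every dose and time its own mean (9 groups) over the 17 libraries, with 8 residual and 3.13 prior degrees of freedom and a variance trend; tests were two-sided, and p-values were adjusted by Benjamini and Hochberg over all 11984 genes. Errors of changes are limma's standard errors. The single 12 h library was assumed to vary like the other groups. The fit was tested on simulated data drawn independently for each library, without effects of lane or GC content. That test therefore does not cover such effects.

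GC content and length came from GENCODE transcripts matched by symbol for 92.52% of genes tested, with a loess correction of each library (span 0.3). Promoter sequences are from RefSeq. Named genes were the 12 largest rises and 12 largest falls among called genes whose groups do not overlap, the members of smallest p in every list (at most 4), the 4 largest differences between changes in each direction, and fixed candidates (some genes are not reported here); symbols of small RNAs and unnamed loci were counted, with at most 4 a direction named. The comparison, its genes and the lists were chosen with earlier results of these data known. Duplicate numbers did not pair libraries across times (correlations of deviations -0.11, 0.07 and -0.06). Alternatives changed the pseudocount, filter, scaling, variance model, libraries in the fit, lane, replicate block, and GC content and length.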

Additional observations from a re-analysis of the deposited data

Results flagged for a closer look

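For 29 named genes the change from 6 to 24 h at 25 µg/ml ILT3.Fc differed from the untreated change by limma's test of the difference itself at an adjusted p under 0.05; each value here is the treated change minus the untreated change on the log2(FPKM + 1) scale.

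Cholesterol synthesis genes had differences above 0: MVD 0.76, HMGCS1 0.65, LSS 0.53 and DHCR7 0.45. MVD and LSS fell in untreated cells. Of the genes that fell in untreated cells, the antisense RNA MFI2-AS1 (0.58), PLAC8L1 (1.35), the unnamed locus LOC100288842 (0.97), CASP9 (0.44) and CTSA (0.35) also had differences above 0. PLAC8L1 lay near the limit of 1 FPKM. It read 1.52 and 1.74 FPKM at 6 h and 0.538 and 0.559 FPKM at 24 h untreated. With 25 µg/ml it read 1.39 and 0.657 FPKM at 6 h and 1.68 and 2.33 FPKM at 24 h. The splicing regulator HNRNPH1 had a difference of -0.23, falling in untreated cells and by more at 25 µg/ml.

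The mitosis genes CENPF (-0.54), PLK1 (-0.40), CENPA (-0.30), TPX2 (-0.27) and BUB1 (-0.24) had differences below 0, with untreated changes above 0 that did not pass the test. The remaining differences above 0 were those of TNFSF9 (0.90), TNFRSF4 (0.87), MFAP4 (0.85), JUND (0.68), ALDOC (0.66), GUSB (0.42), CCND3 (0.39), NPRL3 (0.31) and CD5 (0.29). The remaining differences below 0 were those of RN5S3 (-3.49), DOC2GP (-1.04), the read-through gene GPR75-ASB3 (-0.86), HCG27 (-0.64) and PDK1 (-0.41). RN5S3 is a small RNA and DOC2GP a pseudogene, both measured poorly by FPKM from poly(A) libraries.

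None of these genes had a called difference at 12.5 µg/ml. As given above, the number of called differences at 25 µg/ml fell to as few as 2 without a single library, and the correction for GC content and length turned the balance from differences above 0 to differences below 0.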

How the results depend on the processing

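Over the settings tried, the untreated count of 284 was 55 with only the 2 groups compared, 10 within lane 4, 66 without the 12 h libraries and 1055 after the correction for GC content and length. Leaving out single libraries gave 8 to 798. The 12.5 µg/ml count of 742 was 10, 1718, 224 and 1573 under the same settings, and 86 to 3437 without single libraries (86 without the duplicate and 190 without the first 24 h library, 334 without the first and 3437 without the duplicate 6 h library, 480 without either untreated 6 h library). The 25 µg/ml count of 2305 was 391 with only the groups compared and 135 within lane 4, and 730 to 3464 without single libraries (730 without the duplicate and 1184 without the first 25 µg/ml 6 h library, 908 without the duplicate 24 h library, 3464 without the first 12.5 µg/ml 6 h library). The 399 differences at 25 µg/ml were 235 with no filter on low values, 162 with only the groups compared, 8 within lane 4 and 10 without the 12 h libraries, and 2 to 1172 without single libraries. The count of 0 differences at 12.5 µg/ml was 1 with the filter over all libraries, 2 with only the groups compared, 60 within lane 4, 1 without the 12 h libraries, and 0 to 1075 without single libraries (1075 without the duplicate 12.5 µg/ml 6 h library). Fewer libraries leave fewer residual degrees of freedom (2 to 7 against 8), and leaving out a compared library leaves 1 in its group. Counts went down under some of these settings and up under others, and the cause was not tested.

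Scaling moved the split between directions. Rises were 114 and falls 156 of the untreated calls when libraries were centred on their median, 155 and 220 with quantile normalization, and 616 and 439 after the correction for GC content and length. At 12.5 µg/ml the split of 271 and 471 became 433 and 489 after quantile normalization and 830 and 743 after the correction, and the 284 and 115 differences at 25 µg/ml became 148 and 128 when centred and 205 and 174 when quantile normalized. The share of called genes between 6 and 24 h at 12 h was 89.63% to 91.97% under the other scalings and pseudocount.

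Duplicate numbers did not pair the libraries. With the number as a replicate block, 247 untreated genes were called, 634 at 12.5 µg/ml, 2176 at 25 µg/ml, and 266 differences at 25 µg/ml; with the block and the correction for GC content and length together, 1012, 1570, 2460 and 334. With the numbers of the untreated 24 h libraries crossed, a replicate block chosen after seeing the data, 253 untreated genes and 253 differences at 25 µg/ml were called.

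Genes that reversed direction had small untreated changes that did not pass the test. Under median centring MLX became 0.0037 and DOC2GP 0.023; after quantile normalization DOC2GP 0.059; within lane 4, and equally without the duplicate 6 h library, MLX 0.017, ARRDC4 -0.076 and MFAP4 -0.022; with lane as a term MFAP4 -0.022. After the correction for GC content and length, with or without the block, MLX became 0.015, DOC2GP 0.078 and MYC 0.0042. Without the first 24 h library DOC2GP became 0.011 and ALCAM 0.030, and without its duplicate ARRDC4 -0.065, MFAP4 -0.0045 and RN5S3 -0.27. Without the first 6 h library CD68 became 0.11, RN5S3 -0.86, DOC2GP 0.0071 and GATA3 -0.024. Over the libraries left out in turn, the values ran from -0.076 to 0.087 for ARRDC4, -0.32 to 0.11 for CD68, -0.022 to 0.083 for MFAP4, -0.86 to 0.96 for RN5S3, -0.020 to 0.011 for DOC2GP, -0.024 to 0.088 for GATA3 and -0.24 to 0.030 for ALCAM. The cause of these reversals was not tested. Absolute depth is unknown, and 2 libraries a group limit the precision of every change.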

Other observations

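Values outside the comparisons were read for the nuclear and cytotoxic genes that fell in untreated cells. NEAT1 read 31.8 and 31.7 FPKM at 6 h and 17.5 and 16.02 FPKM at 24 h with 12.5 µg/ml, and 27.3 and 33.6 FPKM at 6 h and 13.1 and 17.1 FPKM at 24 h with 25 µg/ml, so that at every dose both 24 h libraries were below both 6 h libraries. NKG7 read 5.07 and 5.81 FPKM at 6 h and 4.98 and 5.70 FPKM at 24 h with 25 µg/ml, where the times overlapped, while in untreated cells they did not. The difference of 0.67 between these changes did not pass limma's test (adjusted p = 0.0774).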
